A study of Mus musculus with 2 samples.

Results

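The growth and trophic factors examined here were 10 secreted proteins that macrophages are known to release, namely Igf1, Hgf, Pdgfa, Pdgfb, Tgfb1, Hbegf, Areg, Gas6, Osm and Lif, which were chosen by name out of 22910 genes named on the array. They were measured by 14 probes, each a single spot. Of the 10 genes, 8 had a probe well above background on at least 1 array, as had 15515 of all named genes, and Areg and Lif did not.

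The 2 arrays, Agilent mouse expression arrays read in a single colour, each carried RNA from 1 culture, of primary or of self-renewing macrophages. Both cultures began from bone marrow of C57BL/6 mice, labelled male, and were kept with 100 ng/ml recombinant human M-CSF, the cytokine that drives macrophage growth and survival. The primary macrophages were adherent cells at day 5. The self-renewing macrophages were cells after passage 4, which grew out of colonies when most of the passaged cells had stopped dividing, and the methods describe them as bulk cells unless stated otherwise. Neither label names an inflammatory stimulus. With 1 array per cell type there is no spread between replicates, so no difference was tested, and age in culture, passage and cell type cannot be told apart.

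Macrophages feed surrounding tissue through these factors. Each ligand acts through its own receptor: IGF-1 on IGF1R, HGF on MET, the PDGF chains on the PDGF receptors, TGF-β1 on a pair of serine kinase receptors, HB-EGF and amphiregulin on the EGF receptor, GAS6 on the TAM receptors TYRO3, AXL and MERTK, and oncostatin M and LIF on complexes that share the chain gp130. Several of the ligands are made as precursors and need cleavage, shedding, vitamin K-dependent carboxylation or release from a latent complex before they act, steps that RNA levels do not show.

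Signals below are background-corrected intensities, given with the error that the scanner software estimated for that spot. Differences are log2 values, self-renewing minus primary, after scaling each array to the 75th percentile over its gene probes, an intensity of 434 on the primary and 446 on the self-renewing array. For bright spots the spot errors carry over to an error of 0.20 on the log2 difference. Probes of the same gene differed from each other by an SD of 0.32 log2 over 5077 genes with several probes measured on both arrays. Where only 1 array had a probe well above background, the difference is a bound, written as "at least", taken against the higher of its own signal and the lowest signal well above background on the other array, which was 11.8 on the primary and 13.2 on the self-renewing array. Spot error is left out, and a spot can miss the call above that lowest signal, as Hbegf did, so these bounds are approximate.

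Macrophage markers were present on both arrays, with 9 of 9 listed genes, among them Adgre1, Csf1r and Cd68, well above background on each and differences from -1.76 to 0.76 log2. Markers of other cells were uneven. Of 10 neutrophil genes, 8 were detected, 7 of these were at least 2-fold lower in self-renewing macrophages, and the list's summed signal was 105 times the 75th percentile in primary and 6.56 times in self-renewing macrophages, with S100a8, S100a9, Ltf and Ngp not well above background there. Of 6 megakaryocyte and platelet genes, 3 were at least 2-fold lower, namely Pf4, 4.72-fold, and Ppbp and Gp9, which were detected on the primary array only. Their summed signal was 259 and 54.4 times the 75th percentile, but this was mostly Pf4, as brighter probes weigh more in a sum. Pf4 read 111068 in primary and 24187 in self-renewing macrophages, whereas Ppbp, the next brightest, read 882 in primary macrophages. Gp1bb and Gp6 were dim and differed by -0.26 and -0.63 log2. Itga2b, also dim, was not detected in self-renewing macrophages and was at least 1.89-fold lower. Lists of fibroblast and endothelial genes held 0 genes at least 2-fold different, although Cxcl12, Thy1, Postn and Cdh5 were detected on the primary array only and Cldn5 on the self-renewing array only. Basophil and mast cell genes held 2 such genes, Kit and Hdc, both lower, and among lymphocyte genes Cd79b was lower. Of 6 Y-linked genes, the primary array detected 0 and the self-renewing array 4, whereas Xist was detected on the primary array only, so that the primary array goes against its label of male mice and sex cannot be told apart from cell type in any value below. Fewer cells of a type and less RNA per cell also cannot be told apart in these RNA samples.

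Among the 8 detected factors, Gas6 was higher by at least 2-fold in the self-renewing macrophages, and Hgf, Hbegf and Pdgfa were lower by at least 2-fold. The corresponding shares over all 15515 detected genes were 4.76% higher and 8.38% lower. Hgf and Hbegf were detected on the primary array only, as were 7.61% of all detected genes, and a gene that entered in this way did so through the array where it was detected. Igf1, Pdgfb, Tgfb1 and Osm differed by less than 2-fold. The median over the 8 factors was -0.64 log2 with bounds included, and over the 6 measured on both arrays -0.14 log2, beside -0.02 and 0.01 log2 for all genes. No factor changed sign under the 8 other ways of processing the arrays, but for bounds this was fixed in advance wherever the background filter was kept.

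**Figure D1:**
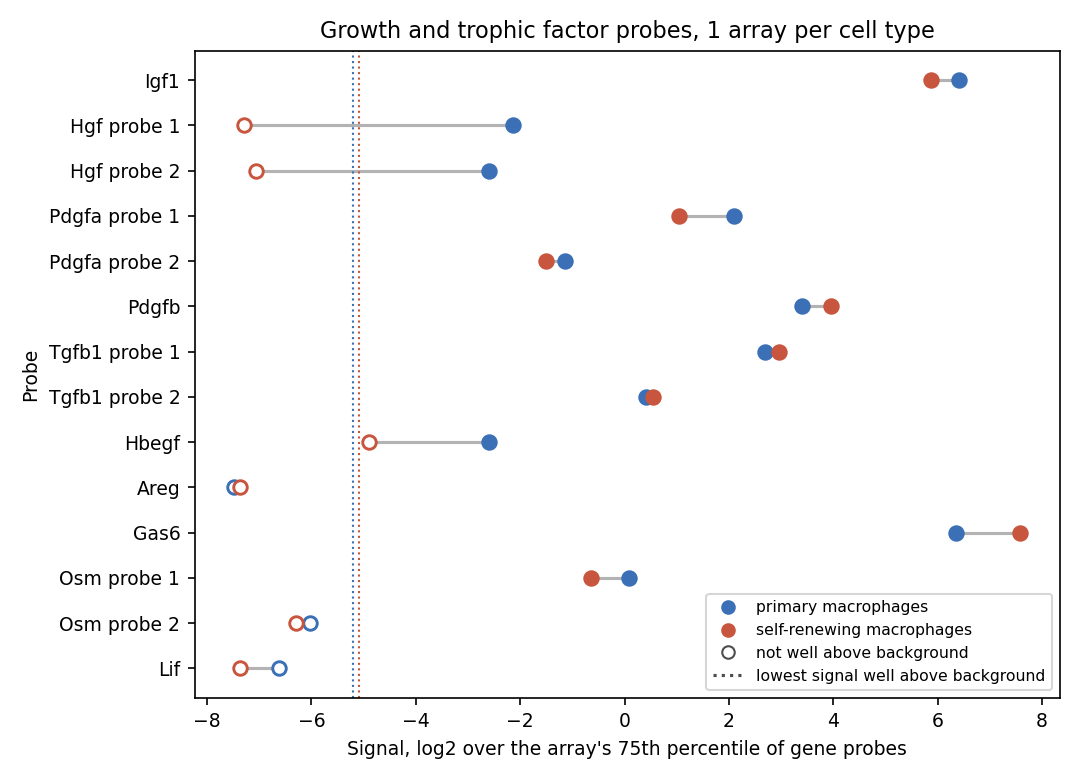
Signal of the 14 probes on the primary array (blue) and the self-renewing array (red), as log2 over each array's 75th percentile, where open circles are not well above background and dotted lines mark the lowest signal that was. Gas6 lies to the right in the self-renewing macrophages, both Hgf probes and Hbegf are open circles there, and Areg, Lif and an Osm probe are open on both arrays. Levels of different probes are not comparable with each other.

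Gas6, the vitamin K-dependent ligand that links phosphatidylserine on dying cells to TAM receptors, was measured at an intensity of 35562 ± 3556 in primary macrophages and 85616 ± 8562 in self-renewing macrophages. It was thus bright on both arrays and brighter in the self-renewing culture. The difference was 1.23 ± 0.20 log2, or 2.34-fold higher, by 1 probe (A_51_P172054). It ranked 395th from the top of the 14003 genes measured on both arrays and ranged from 1.21 to 1.41 log2 over the alternatives.

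The TAM receptors differed in opposite directions. Mertk, the receptor macrophages use to engulf apoptotic cells, was measured at 524 in primary and 2520 in self-renewing macrophages. It was 4.68-fold higher in the latter, at 2.23 log2. Axl, the TAM receptor with a particularly high affinity for GAS6, differed in the other direction, with 5025 in primary and 99.3 in self-renewing macrophages, or 52.0-fold lower. A dimmer Axl probe, detected on the primary array only, gave a bound of at least 3.99-fold lower. Tyro3 was dim, at 40.7 in primary macrophages and not well above background in self-renewing macrophages, and was at least 3.18-fold lower, while its other probe was not well above background on either array. Tyro3 was under 2-fold with normexp, a model-based background correction that adds an offset and draws dim probes together, at -0.54 log2. Axl was at -4.95 log2 with normexp and -3.85 log2 with the mean over its probes. Pros1, which encodes protein S, a ligand of MERTK and TYRO3, differed by 0.11 log2. Ggcx and Vkorc1, which carry out the carboxylation that GAS6 needs, differed by -0.02 and 0.15 log2. Under the authors' own scaling, which adds 0.19 log2 to every difference, negative values smaller than that step, here and below, turn positive.

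The start of Gas6, as the only factor higher by at least 2-fold, is shown here beside the annotated starts of Hgf, the factor with the largest bound in the other direction. Each window holds 250 bases before and 50 after a transcription start in the RefSeq annotation of GRCm38.p6. They were searched on both strands for the KLF box CCACCC, chosen because KLF2 is a transcription factor that the study measured, and for TATAAA (the TATA box), TGANTCA (the AP-1 site), GTCTAGAC (the SMAD palindrome) and TTCNNNGAA (the STAT site). Capitals mark matches.
Gas6, chr8:13494486-13494785, minus strand: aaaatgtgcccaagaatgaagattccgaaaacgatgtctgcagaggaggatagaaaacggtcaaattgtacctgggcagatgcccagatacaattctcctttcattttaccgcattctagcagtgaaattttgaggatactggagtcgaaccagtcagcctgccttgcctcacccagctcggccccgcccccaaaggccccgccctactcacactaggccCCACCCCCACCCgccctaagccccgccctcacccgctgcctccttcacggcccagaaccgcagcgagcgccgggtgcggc
Hgf, chr5:16553245-16553544, plus strand: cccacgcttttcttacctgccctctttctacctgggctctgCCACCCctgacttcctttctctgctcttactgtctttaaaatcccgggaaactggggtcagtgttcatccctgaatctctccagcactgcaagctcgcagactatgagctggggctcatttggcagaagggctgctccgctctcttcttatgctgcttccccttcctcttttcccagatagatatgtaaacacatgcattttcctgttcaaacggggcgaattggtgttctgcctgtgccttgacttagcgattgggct
Hgf, chr5:16553651-16553950, plus strand: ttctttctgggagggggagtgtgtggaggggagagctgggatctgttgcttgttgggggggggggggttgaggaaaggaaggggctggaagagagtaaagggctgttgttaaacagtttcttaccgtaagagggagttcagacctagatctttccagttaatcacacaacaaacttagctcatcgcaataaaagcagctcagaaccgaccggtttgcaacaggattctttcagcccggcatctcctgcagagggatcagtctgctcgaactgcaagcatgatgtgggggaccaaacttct

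The Gas6 window held 2 KLF boxes side by side, which began 30 and 24 bases before the start. The upstream Hgf window held 1, which began 209 bases before the start, and the downstream Hgf window held none of the 5 motifs (0 matches). The KLF box is common and occurred in 31.5% of 32851 windows of this length, against 7.81% for the AP-1 site, 13.6% for the TATA box, 8.3% for the STAT site and 0.213% for the SMAD palindrome. Windows of 7 of the 10 factors were searched, 9 in all. A KLF box was also found for Pdgfa, Tgfb1, Areg and Lif. Of these, Pdgfa was lower by at least 2-fold, Tgfb1 differed by less than 2-fold, and Areg and Lif were not detected. Igf1 had no KLF box and 1 AP-1 site. Areg had a TATA box, which began 31 bases before its start. The windows also differed in composition, from 6 CpG dinucleotides for Igf1 and the downstream start of Hgf, through 17 for Gas6, to 37 for the more upstream start of Pdgfa on its minus strand. A match describes letters in the window and is not a bound site.

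Hgf, which encodes hepatocyte growth factor, was detected in primary macrophages only. Its brighter probe (A_55_P2507000) gave 97.9 ± 10.1 in primary macrophages and 2.84 ± 2.85 in self-renewing macrophages. The other (A_51_P484998) gave 71.7 ± 7.74 and 3.32 ± 3.33. Both were dim on the primary array and at the level of their own error on the self-renewing array. The bounds were at least 7.65-fold and at least 5.60-fold lower in the self-renewing macrophages. With normexp, the bound shrank to -1.26 log2, still past 2-fold.

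Met, the HGF receptor, stood at 74.4 in primary macrophages and was not well above background in self-renewing macrophages, at least 5.82-fold lower by this probe, while its other probe was undetected on both arrays. Of the proteases that cleave pro-HGF, Hgfac was 2.10-fold and St14, which encodes matriptase, 2.57-fold lower. Spint1, which encodes an inhibitor of these proteases, was 6.05-fold lower. Hgfac was dim on both arrays, at 53.7 and 26.3, and was at -0.34 log2 with normexp, -0.88 log2 with the authors' scaled values and -0.93 log2 with quantile normalization. Spint2, a related inhibitor, differed by -0.19 log2, and Plau, which encodes urokinase, by -0.48 log2. Mst1, which encodes the HGF-like protein MSP, read 145 and 19.7, 7.56-fold lower. With normexp, St14 was under 2-fold, at -0.91 log2, and Met, Spint1 and Mst1 were at -1.02, -1.66 and -1.29 log2.

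Hbegf encodes a membrane-bound EGF family ligand that is shed from the cell surface. It was measured at 72.0 ± 7.71 in primary macrophages and 14.9 ± 3.40 in self-renewing macrophages (A_51_P181565). The latter spot was not called well above background, although it was above the lowest signal on that array that was. Taken against that spot's own signal, Hbegf was 4.96-fold lower, or -2.31 log2. As spot error is left out, this is an estimate and not a strict bound. With normexp it was at -0.83 log2, which is under 2-fold. Areg, the other EGF family member in the set, read 2.43 and 2.71, near its spot errors of 2.44 and 2.72, so that no level was detectable for it on either array. Of 4 other ligands of this receptor family, Tgfa, Ereg, Btc and Epgn, none was well above background on either array (0 of 4), and Egf was dim and differed by -0.03 log2.

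Egfr itself was dim. Its brightest probe read 79.4 in primary macrophages and was not well above background in self-renewing macrophages, a bound of at least 6.21-fold lower, but a dimmer probe detected on both arrays gave only -0.71 log2 and the dimmest a bound of at least 1.32-fold lower. Egfr was at -1.16 log2 with normexp and -1.25 log2 with the mean over its probes. Erbb2 differed by -0.38 log2, and Erbb3 and Erbb4 were not well above background. The shedding machinery was present on both arrays. Adam17, which encodes the main sheddase of HB-EGF and amphiregulin, differed by 0.31 log2, and its partner Rhbdf2 was 1.84-fold higher while Rhbdf1 was 1.68-fold lower. Cd9, a tetraspanin that associates with HB-EGF, differed by -0.16 log2.

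Igf1 was bright on both arrays. It was measured at 36815 ± 3681 in primary macrophages and 25969 ± 2597 in self-renewing macrophages (A_51_P147942). It was 1.46-fold lower in the latter, at -0.54 ± 0.20 log2 and from -0.56 to -0.36 log2 over the alternatives. Of the genes measured on both arrays, 12.5% had a lower difference, so that a decrease of this size was not rare.

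Of the receptor genes around Igf1, Igf1r and Igf2r were at least 2-fold lower and Insr was not. Igf1r read 397 in primary and 63.5 in self-renewing macrophages, 6.44-fold lower, and a dimmer Igf1r probe, undetected in self-renewing macrophages, gave a bound of at least 8.74-fold lower. Igf2r, which encodes the receptor that clears IGF-2 and sorts lysosomal enzymes, read 3056 and 713, 4.41-fold lower. With normexp, Igf1r was at -1.93 log2. Insr, the insulin receptor gene, differed by 0.33 log2 by its brighter and -0.06 log2 by its dimmer probe. Igf2 was near background, at 19.3 in primary macrophages and undetected in self-renewing macrophages. Of 8 IGF binding protein genes, 4 were well above background on both arrays and 0 differed by 2-fold. The largest difference among them was that of Igfbp4, which was 1.71-fold higher.

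**Figure D2:**
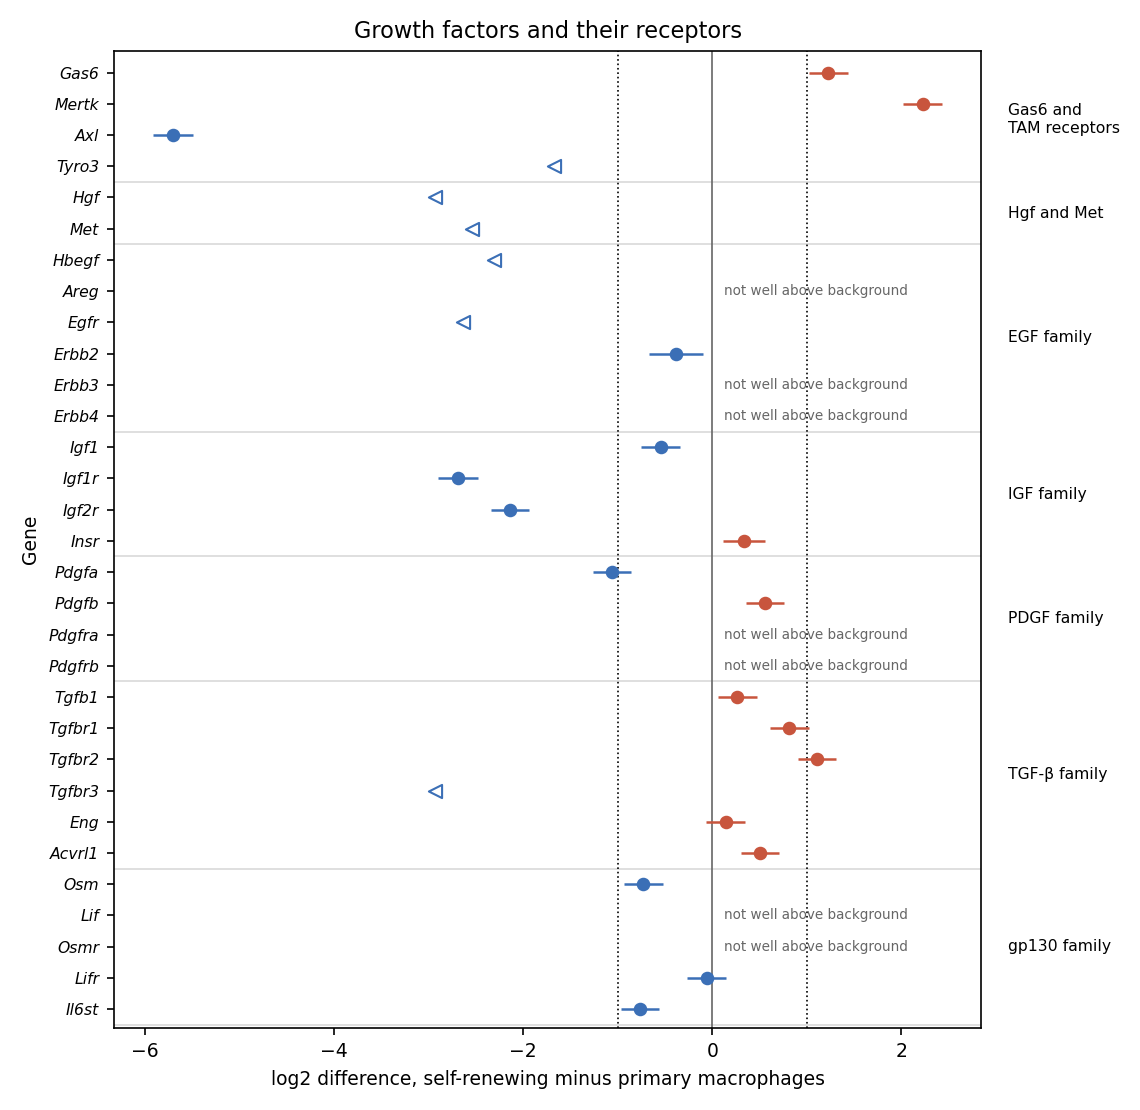
Log2 difference, self-renewing minus primary macrophages, for each factor and its receptors, with the spot error as bars. Filled circles were measured on both arrays, open triangles are bounds, or for Hbegf an estimate, of genes detected on the primary array only, and dotted lines mark 2-fold. Mertk and Axl lie on opposite sides at 2.23 and -5.70 log2, and Met, Egfr, Igf1r and Igf2r lie to the left of their dotted line.

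The PDGF chains differed in opposite directions. Pdgfb, the B chain gene, was measured at 4571 ± 457 in primary and 6932 ± 693 in self-renewing macrophages (A_55_P2047310), 1.47-fold higher at 0.56 ± 0.20 log2. Pdgfa, the A chain gene, was measured at 1866 ± 187 and 922 ± 92.2 by its brighter probe (A_55_P2007470), 2.08-fold lower at -1.06 ± 0.20 log2. Its dimmer probe (A_51_P370099) gave 196 ± 19.9 and 157 ± 16.1, or -0.36 ± 0.21 log2, so that the probes of Pdgfa shared a direction and differed in size. Pdgfa was under 2-fold with the mean of its probes (-0.71 log2), the authors' scaled values (-0.87 log2) and normexp (-0.97 log2).

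Pdgfc, which encodes a PDGF that needs cleavage of its CUB domain, read 71.8 and 610, 8.25-fold higher in self-renewing macrophages, and ranked 55th from the top among the genes measured on both arrays, and was at 2.26 log2 with normexp. Pdgfd was not well above background. Neither were Pdgfra and Pdgfrb, the receptor genes, which read between 2.55 and 4.93 on the arrays.

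Tgfb1 was measured at 2805 ± 280 and 3468 ± 347 by its brighter probe (A_51_P390715), and at 575 ± 57.6 and 652 ± 65.3 by the other (A_66_P135688). The differences were 0.27 ± 0.20 and 0.14 ± 0.20 log2. Both probes were slightly higher in self-renewing macrophages, by little more than the spot error or less. Tgfb2 was not well above background, and Tgfb3 was detected in primary macrophages only, at 40.8, with a bound of at least 3.19-fold lower, or -0.66 log2 with normexp, which is under 2-fold.

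The receptor genes of TGF-β were mixed. Tgfbr2, the receptor that binds the ligand first, read 5346 in primary and 11867 in self-renewing macrophages, 2.16-fold higher. Tgfbr1, the receptor kinase it activates, was 1.76-fold higher. Acvrl1 was 1.42-fold higher and Eng differed by 0.14 log2. Tgfbr3, the co-receptor betaglycan, was detected in primary macrophages only and was at least 7.63-fold lower in self-renewing macrophages, or -1.36 log2 with normexp.

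TGF-β1 is held latent by binding proteins on the cell surface and in the matrix. Nrros, the anchor of latent TGF-β on myeloid cells, was bright, at 39723 and 54213, and differed by 0.41 log2. Lrrc32, which encodes GARP, the anchor used by regulatory T cells and platelets, read 342 and 52.7, 6.68-fold lower. Ltbp2 read 24.4 and 123, 4.92-fold higher, while Ltbp3 was 2.20-fold lower and Ltbp4 differed by 0.17 log2. Ltbp3 was under 2-fold, at -0.95 log2, both with normexp and with the authors' scaled values, and normexp put Ltbp2 at 1.01 and Lrrc32 at -1.91 log2. Of the genes that help release active TGF-β, Thbs1, which encodes thrombospondin-1, was detected in primary macrophages only, at 250, and was at least 19.5-fold lower in self-renewing macrophages. A further Thbs1 probe had a bound of at least 5.58-fold, and Thbs1 was at -2.25 log2 with normexp and -3.38 log2 with the mean over probes. Itgav differed by 0.12 log2 and Itgb8 was not well above background. Furin, which encodes a convertase that cleaves pro-TGF-β1, differed by 0.10 log2.

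Smad3, which encodes a receptor-activated SMAD, was 3.65-fold higher in self-renewing macrophages, at 734 against 196, and its dimmer probe gave 2.09 log2. Smad2 and Smad4 differed by -0.15 and 0.04 log2 by their brightest probes, although the other Smad2 probe gave 0.87 log2. Among genes that restrain SMAD signalling, Smad6 and Pmepa1 were each 4.58-fold higher. Skil was 3.27-fold higher by its brightest probe, with 1.62 and 1.69 log2 by the others. Smad7 was 1.62-fold higher. Smad6 and Pmepa1 were dim in primary macrophages, at 17.0 and 29.7, and normexp brought them to 0.82 and 1.09 log2. Bambi, which encodes a decoy receptor, differed in the other direction, with 931 and 140, or 6.82-fold lower. Tgfbi and Tgif1 differed by 0.10 log2 each.

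**Figure D3:**
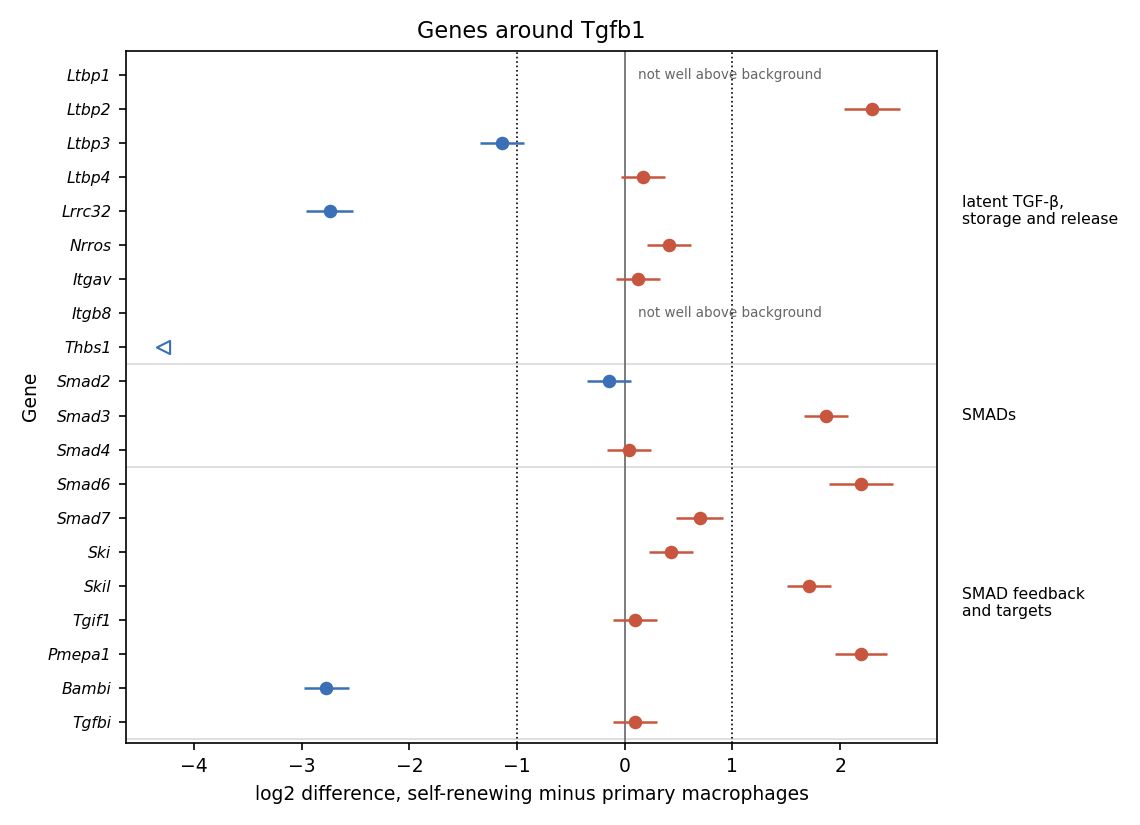
Log2 difference, self-renewing minus primary macrophages, for genes of latent TGF-β, SMADs, and feedback or target genes, with the spot error as bars. Filled circles were measured on both arrays, the open triangle is the bound of Thbs1, detected on the primary array only, and dotted lines mark 2-fold. Ltbp2, Smad3, Smad6, Skil and Pmepa1 lie to the right of 2-fold, and Lrrc32, Ltbp3, Thbs1 and Bambi to the left.

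Osm, which encodes oncostatin M, was measured by 1 of its 2 probes (A_55_P2830665), at 458 ± 45.8 in primary and 284 ± 28.5 in self-renewing macrophages. It was 1.66-fold lower, at -0.73 ± 0.20 log2, and from -0.75 to -0.54 log2 over the alternatives. The other Osm probe (A_52_P348614) read 6.66 and 5.66 and was not well above background on either array. Lif read 4.41 ± 2.46 and 2.68 ± 2.70 and was not detectable on either array. Of the related cytokines, Il6, Il11 and Ctf1 were not well above background, Cntf differed by 0.14 log2, and Clcf1, at 27.6 in primary macrophages, was at least 2.16-fold lower, a bound reduced to -0.16 log2 by normexp, -0.92 log2 by the authors' scaled values and -0.87 log2 by quantile normalization.

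Il6st, which encodes gp130, was 1.70-fold lower, and its dimmer probe gave -0.86 log2. Lifr differed by -0.06 log2 by its brightest probe and by -0.40 and -0.23 log2 by the others. Osmr, the specific receptor chain of oncostatin M, was not well above background by either probe. Downstream, Socs3 and Bcl3, known STAT3 targets, were 1.95-fold and 1.94-fold higher, and both pass 2-fold under the authors' scaling. Pim1 was 1.36-fold higher, whereas Stat3, Jak1, Jak2 and Tyk2 differed by 0.03, 0.03, -0.05 and 0.14 log2.

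**Figure D4:**
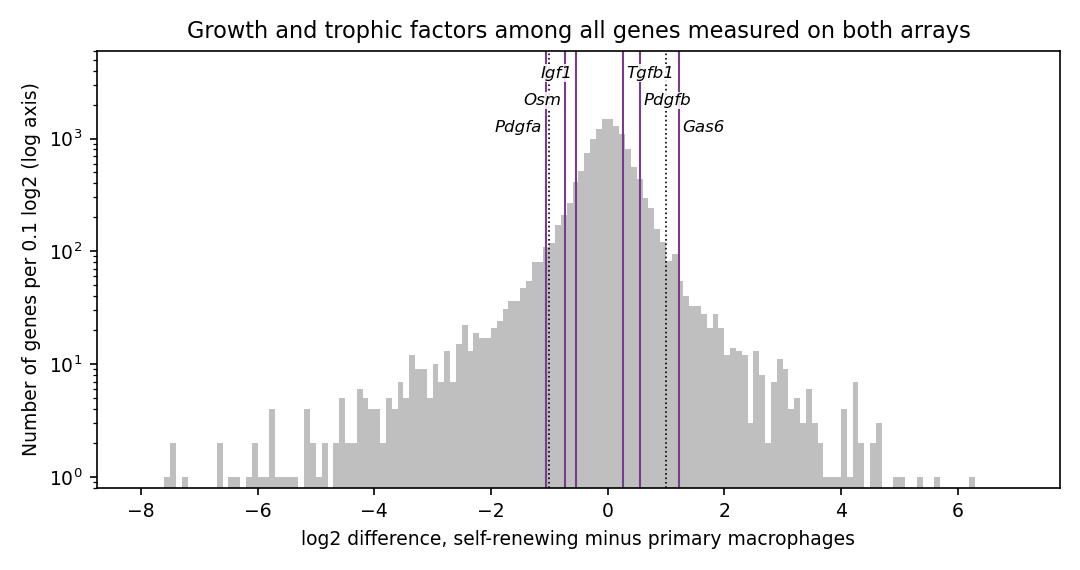
Number of genes (log axis) by log2 difference, self-renewing minus primary macrophages, for the 14003 genes measured on both arrays, with the 6 factors measured on both as purple lines and 2-fold as dotted lines. Gas6 at 1.23 and Pdgfa at -1.06 log2 lie just outside 2-fold, and Osm, Igf1, Tgfb1 and Pdgfb inside it.

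By list, the neighbouring genes differed in balance. Of 21 receptor genes, 16 were detected, 2 were at least 2-fold higher (Mertk and Tgfbr2) and 7 lower (Igf1r, Igf2r, Met, Egfr, Axl, Tgfbr3 and Tyro3), or 43.8% lower beside 8.38% of all detected genes. Of these 7, 4 entered through the primary array only. Of 25 genes for maturation, shedding and activation, 21 were detected, 1 was higher (Ltbp2) and 6 were lower (Hgfac, St14, Spint1, Ltbp3, Lrrc32 and Thbs1), or 28.6%, with Thbs1 entering through the primary array only. Of 18 intracellular relay genes, all 18 were detected on both arrays, 4 were higher (Smad3, Smad6, Skil and Pmepa1), or 22.2% beside 4.76%, and 1 was lower (Bambi). Of 23 related ligands, 13 were detected, 1 was higher (Pdgfc) and 3 were lower (Mst1, Tgfb3 and Clcf1), of which Tgfb3 and Clcf1 entered through the primary array only. The median differences of these lists, bounds included, were -0.57, -0.16, 0.28 and -0.03 log2 in the same order. These counts depend on the scaling. Under the authors' scaling, Socs3, Bcl3, Rhbdf2 and Tgfbr1 also pass 2-fold higher, and Hgfac, Ltbp3 and Clcf1 are no longer 2-fold lower.

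Outside the families of the 10 factors, the trophic factor genes Grn, Nampt, Bdnf and Fgf1 differed by less than 2-fold. Grn, which encodes progranulin, gave 0.12 log2 by its brightest probe and 0.50 and 0.20 log2 by the others, and Nampt gave -0.05 log2. Bdnf was dim and gave -0.20 log2. Fgf2 was not well above background on either array, and Fgf1 was near background and differed by 0.08 log2.

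The genes lower in self-renewing macrophages, Hgf, Hbegf, Pdgfa and Osm among them, differed in the same direction as the neutrophil and megakaryocyte markers given above, whose part in these differences was not tested.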

How the data were processed

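Agilent SurePrint G3 mouse arrays were used to measure RNA of 1 primary and 1 self-renewing macrophage culture. The authors deposited scanner output (Feature Extraction 11.5.1.1) with the intensity of each spot raw and after background subtraction within the array, its estimated error and detection flags, and a table of the same intensities times 1 constant per array (1.07 and 1.19), whose choice is not given in the sources used here. Both arrays lay on 1 slide and share 1 scan time.

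Here log2 intensities were set to the 75th percentile of gene probes, without control spots and 112 gene spots flagged as outliers on either array. No gene spot was saturated (0). Of 56598 probes, the primary array had 34807 and the self-renewing array 33095 well above background. Accessions matched 58.3% of probes to 1 gene of GRCm38.p6, and the other 23610 probes were not analysed as genes. The array design names an earlier build, so no probe coordinates are given, and the start windows have those of GRCm38.p6. A gene was represented by its brightest probe well above background on at least 1 array. Differences were counted at 2-fold, as the methods give no threshold for the arrays.

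With 1 array per cell type no test was made, and precision is limited to the spot error. Nor can a gene be called most alike to another. The factors and gene lists were chosen with earlier results of these data known. All factors, every listed gene past 2-fold and all receptors are named, and others as they complete a pathway. Some listed genes are counted but not reported here by name. The alternatives were normexp background correction with an offset of 50 on median signals, quantile normalization, the authors' scaled values, the 75th percentile or median of probes detected on both arrays, no background filter, only genes detected on both arrays, and the mean over probes. Counting was tested on simulated data. Limma 3.58.1 was run in R 4.3.3, and all else in Python 3.11.15 (numpy 2.4.6, pandas 2.3.3, matplotlib 3.10.9).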

Additional observations from a re-analysis of the deposited data

How the results depend on the processing

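No paired analysis was possible because there is a single array of each kind of macrophage. A value was taken as unmoved by an alternative when it changed by less than the SD of 0.32 log2 between probes of a gene. Of 62 values of the 8 detected factors under 8 alternatives, 58 stayed within that SD, 4 moved and 0 took the other sign. Part of this was fixed in advance. A bound cannot change sign while the background filter is kept. Changing the filter left every factor measured on both arrays as it was. Scaling to another reference, or by the authors' constants, moves all differences by the same amount. With normexp, Hgf was at -1.26 and Hbegf at -0.83 log2, 1 factor was at least 2-fold lower in place of 3, and 429 of all genes were at least 2-fold higher and 750 lower. Without the background filter, Hgf was at -5.15 log2, and 1192 genes were higher and 2336 lower. With only genes detected on both arrays, 1 factor was at least 2-fold lower, the median of the factors was -0.14 log2 and 782 genes were lower, since Hgf and Hbegf drop out by construction. With the mean over probes, Pdgfa was at -0.71 log2. The authors' scaled values gave 1035 genes at least 2-fold higher and 1069 lower, a share of 49.2% higher, where the processing used here gave 739 and 1300, or 36.2%. Of 194 values of 25 other listed genes past 2-fold, 30 moved, in 19 genes, and 0 took the other sign, which bounds among them could not do while the filter was kept. Dim genes, among them Hgf, Hbegf, Met, Egfr, Tyro3 and Tgfb3, are limited by signal over background, so that their differences are bounds, or for Hbegf an estimate.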
